A study of Mus musculus and Homo sapiens with 22 samples.

Results

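The genes followed here are 9 that lymphatic endothelial cells use, traced through the PROX1 binding maps of 3 cell systems. They were Vegfc, Flt4, Nrp2, Itga9, Lyve1, Pdpn, Nr2f2, Sox18 and Foxc2, with the same symbols in capitals in human, and they stand among 21951 protein-coding genes of the mouse annotation and 20046 of the human one. A peak was assigned to a gene when its summit lay in the gene body or within 50 kb of it, a stretch called the window here. This gave 47 of 50159 peaks in liver, 57 of 40531 in mouse embryonic fibroblasts (MEFs) and 6 of 14369 in Hep3B cells. The rule uses no measured value. Its limit of 50 kb kept a MEF peak 49431 bp from Lyve1 and left out a liver peak 51330 bp from Nr2f2.

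The assay was CUT&RUN, where a nuclease is tethered through an antibody to chromatin that a protein occupies, and the DNA cut loose is sequenced. Of 22 samples, 5 were livers of untreated C57BL/6J mice aged 2 to 3 months probed with an antibody against endogenous PROX1, and 5 were the matching IgG controls. Primary MEFs from E13.5 C57BL/6N embryos received lentiviruses for rtTA and for tetO-FLAG-mmProx1, and Hep3B cells, an established human hepatocellular carcinoma line, received pLIX-Puro-hsPROX1 and were selected with puromycin. Both were exposed to doxycycline at 2 µg/ml for 2 days and probed with a FLAG antibody (3 samples each) or IgG (3 samples each). The FLAG lists therefore show a factor made in excess from a lentiviral vector, while the liver list shows the endogenous one. The liver nuclei came from homogenised tissue without sorting, and the labels call them hepatocytes. No lymphatic endothelial sample was used here.

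Each peak list pools the antibody samples of 1 group. The IgG samples were not analysed here. No depth per sample and no spread between replicates can be given, and no test over samples could be made. The main counts over the 9 genes are set beside the same count over all protein-coding genes or all peaks of a list (the background). Peaks were ordered within a list by the −log10 p of the summit, and a percentile is the share of the list with a lower value. These values were not scaled between lists, so percentiles and not −log10 p values are placed side by side. The liver list held a promoter peak (summit no more than 1000 bp from any TSS of the gene) at 15 of 15 hepatocyte genes and 1 of 15 fibroblast genes, where 28.2% of protein-coding genes had one. The MEF list held one at 3 of 15 hepatocyte genes and 12 of 15 fibroblast genes, where 56.5% did. Both gene lists were chosen with earlier results of these data known. In a tissue with several cell types, binding in fewer nuclei and weaker binding per nucleus cannot be told apart.

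PROX1 is a homeodomain transcription factor best known as the determinant of lymphatic endothelial identity, and hepatocytes express it as well. In the embryonic vein, SOX18 and NR2F2 induce Prox1, and PROX1 then acts together with NR2F2 on genes such as Flt4. VEGF-C released by surrounding tissue activates the receptor encoded by Flt4, with neuropilin 2 as coreceptor, and so directs the growth of lymphatic vessels. Integrin α9 and FOXC2 are needed for lymphatic valves, while LYVE1 and podoplanin are surface proteins by which lymphatic vessels are recognised. Sinusoidal endothelial cells of the liver also carry LYVE1, and fibroblasts can carry podoplanin and NR2F2.

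A PROX1 consensus, a palindrome of 12 bases, was searched on both strands within 150 bp of each summit, with up to 2 mismatches. It was found in 7 of 47 liver peaks of these genes (14.9%, against 6.19% of all liver peaks), in 9 of 57 MEF peaks (15.8%, against 5.0%) and in 0 of 6 Hep3B peaks (against 5.02%). Each of the 16 matches had 2 mismatches, so none came closer to the consensus. They lay at 14 distinct positions, since a Foxc2 and a Nr2f2 position each fell in a liver and a MEF peak. In MEFs, Foxc2 held 4 of the 9, and without Foxc2 the share was 5 of 44 peaks (11.4%). With 3 mismatches allowed, the MEF share was 42.1%, against 42.4% of all MEF peaks, and the liver share 61.7%, against 46.6%. Windows of 80 bp on each side of the summit that hold such a match and no annotated UTR are given for Lyve1, Nr2f2, Nrp2 and Itga9 on the plus strand of mm10. The match is in capitals, and the windows are shown because peak and consensus coincide there:
Lyve1, liver, chr7:110855062-110855222: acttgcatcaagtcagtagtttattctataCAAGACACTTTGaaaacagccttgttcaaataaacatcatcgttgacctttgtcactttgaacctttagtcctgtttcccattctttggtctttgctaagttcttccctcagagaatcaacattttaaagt
Lyve1, liver, chr7:110891840-110892000: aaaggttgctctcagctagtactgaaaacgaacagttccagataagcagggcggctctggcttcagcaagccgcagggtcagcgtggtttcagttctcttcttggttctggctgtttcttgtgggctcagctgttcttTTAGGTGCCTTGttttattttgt
Nr2f2, liver, chr7:70364965-70365125: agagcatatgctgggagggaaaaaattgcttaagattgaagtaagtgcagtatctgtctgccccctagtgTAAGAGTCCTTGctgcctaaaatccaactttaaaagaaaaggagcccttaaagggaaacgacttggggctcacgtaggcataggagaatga
Nrp2, liver, chr1:62827381-62827541: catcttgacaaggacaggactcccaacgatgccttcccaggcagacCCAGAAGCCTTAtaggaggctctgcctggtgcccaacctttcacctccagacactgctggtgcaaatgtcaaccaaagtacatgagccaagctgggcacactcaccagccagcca
Nrp2, MEF, chr1:62706727-62706887: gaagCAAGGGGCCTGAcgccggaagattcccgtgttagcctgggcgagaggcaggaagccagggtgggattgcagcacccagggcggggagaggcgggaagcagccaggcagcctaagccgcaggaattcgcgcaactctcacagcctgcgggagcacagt
Itga9, MEF, chr9:118737902-118738062: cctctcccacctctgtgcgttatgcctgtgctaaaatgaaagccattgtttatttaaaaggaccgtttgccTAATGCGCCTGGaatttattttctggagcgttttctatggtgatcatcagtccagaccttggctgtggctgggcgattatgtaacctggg

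The best ranked of these is the first, from an intron of Lyve1, where the centre of the match lay 44 bp from the summit. The matches nearest to a summit were those of Itga9 (3 bp), Nr2f2 in liver (4 bp), Vegfc (11 bp) and the upstream Foxc2 site (12 bp). A match is a likeness of letters and was not tested for binding.

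Further windows are given for peaks described below that lack the consensus within 80 bp. They are the highest ranked peaks of Nrp2 in liver and Flt4 in MEFs, and Pdpn and Nr2f2 places with a peak in both mouse lists. Capitals mark, on either strand and with overlaps allowed, AAGACG or AAGGCG (the PROX1 half-site, a part of the palindrome), AGGTCA (nuclear receptor half-site), CCAAT (NF-Y) and TGACTCA (AP-1):
Nrp2, liver, chr1:62823580-62823740: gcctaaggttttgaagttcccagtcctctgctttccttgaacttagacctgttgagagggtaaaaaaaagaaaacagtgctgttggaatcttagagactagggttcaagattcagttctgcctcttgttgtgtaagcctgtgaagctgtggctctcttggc
Flt4, MEF, chr11:49616338-49616498: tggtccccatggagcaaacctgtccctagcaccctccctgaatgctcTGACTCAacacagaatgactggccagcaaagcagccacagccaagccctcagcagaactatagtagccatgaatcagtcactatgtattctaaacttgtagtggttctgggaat
Pdpn, liver, chr4:143238594-143238754: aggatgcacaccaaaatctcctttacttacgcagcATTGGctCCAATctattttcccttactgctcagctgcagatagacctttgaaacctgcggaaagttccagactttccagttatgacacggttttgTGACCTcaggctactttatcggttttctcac
Nr2f2, liver, chr7:70359012-70359172: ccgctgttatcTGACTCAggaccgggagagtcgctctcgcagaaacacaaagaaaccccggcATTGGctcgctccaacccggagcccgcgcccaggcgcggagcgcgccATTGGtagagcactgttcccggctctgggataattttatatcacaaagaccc
Nr2f2, MEF, chr7:70361741-70361901: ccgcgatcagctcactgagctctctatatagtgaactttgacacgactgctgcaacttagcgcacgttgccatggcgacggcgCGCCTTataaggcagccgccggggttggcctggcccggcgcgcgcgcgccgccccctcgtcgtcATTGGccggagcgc

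Over all windows of 150 bp on each side of a summit, the NF-Y word stood in 22 of 47 liver peaks of these genes (46.8%, against 36.6% of all liver peaks) and 19 of 57 MEF peaks (33.3%, against 36.6%). The nuclear receptor half-site stood in 11 liver peaks (23.4%, against 32.0%) and 7 MEF peaks (12.3%, against 16.4%). The PROX1 half-site, which can lie inside a palindrome match, stood in 4 liver peaks (8.51%, against 9.67%) and 8 MEF peaks (14.0%, against 12.7%). AP-1 words stood in 3 peaks of each mouse list (6.38% against 7.06% in liver and 5.26% against 13.4% in MEFs), and the ETS word CCGGAA in 1 liver peak (2.13%, against 5.53%) and 6 MEF peaks (10.5%, against 11.6%). The forkhead word TGTTTAC stood in 1 peak of each (2.13% against 8.18% in liver and 1.75% against 3.85% in MEFs). The median GC content of these windows came to 47.8% for liver, 52.8% for MEFs and 64.6% for Hep3B, beside 46.8%, 51.8% and 61.1% over all peaks.

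In liver, 8 of the 9 genes had a peak in the window, where 69.1% of protein-coding genes did. In MEFs all 9 had one, where 81.2% did. In Hep3B 3 of 9 had one, LYVE1, SOX18 and NR2F2, where 71.9% did. Promoter peaks were found at 2 genes in liver (Vegfc and Nr2f2, background 28.2%), at 7 genes in MEFs (background 56.5%) and at NR2F2 in Hep3B (background 45.2%). Nr2f2 was the member with a promoter peak in each of the 3 lists. How many of all protein-coding genes have a promoter peak in each of the 3 lists was not counted. The MEF list lacked one at Lyve1 and Sox18. The Hep3B list is the shortest, and when the other lists were reduced to their 14369 top peaks, liver held 17 peaks at 3 of the 9 genes (background 40.8%) and a promoter peak at 0 (background 6.26%). MEFs then held 15 peaks at 8 genes (background 69.5%) and a promoter peak at 2 (background 34.7%).

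**Figure D1:**
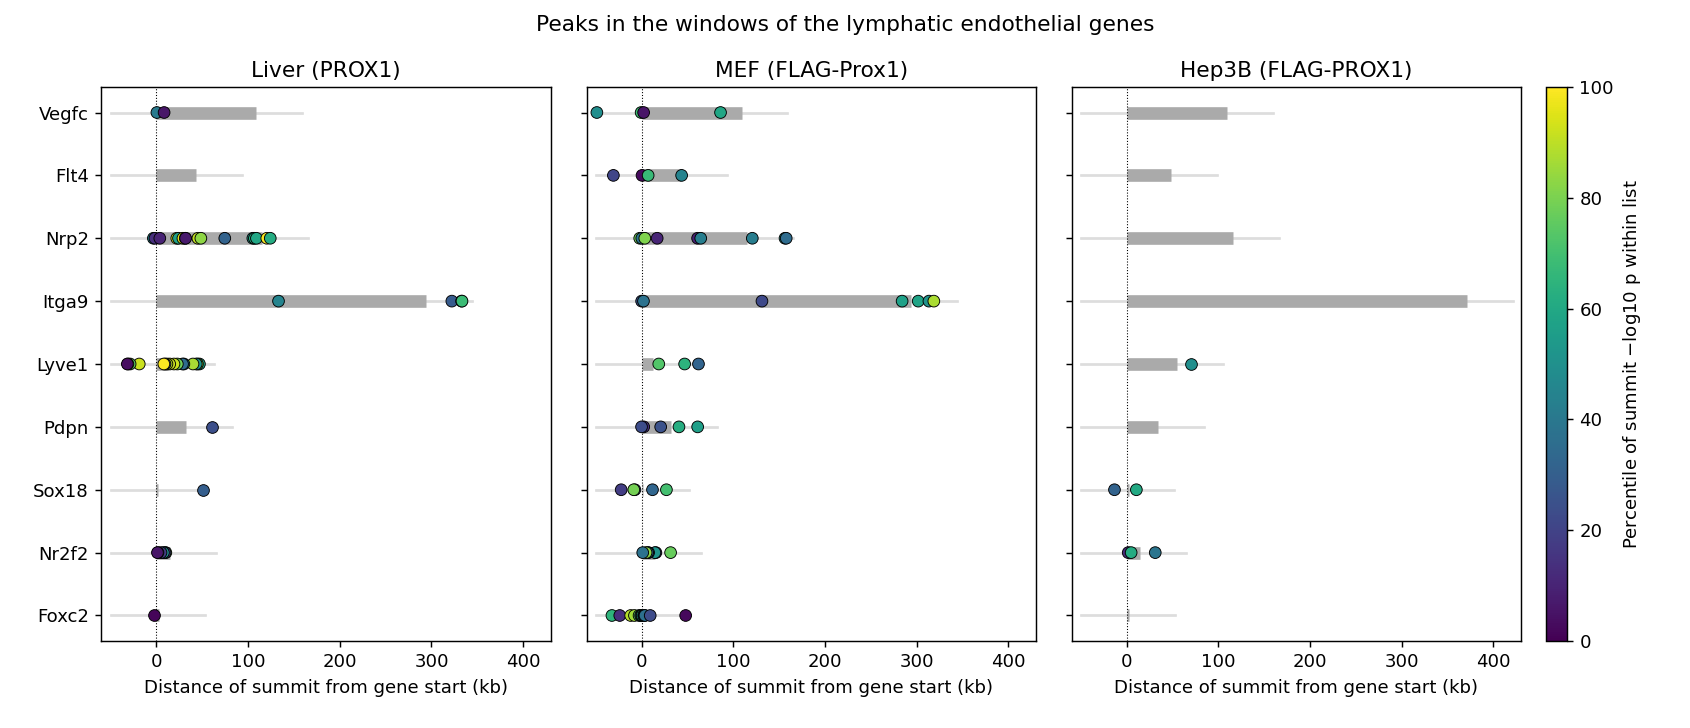
Position of each peak summit along the 9 genes in liver, MEFs and Hep3B, in kb from the gene start in the direction of transcription. Thick grey bars are gene bodies, thin lines the 50 kb on each side, and colour is the percentile of the summit −log10 p within its list. Liver peaks crowd along Nrp2 (16) and around Lyve1 (16), MEF peaks around Foxc2 (13), and 6 genes have no Hep3B peak.

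The peaks were spread unevenly over the genes. In liver, Lyve1 and Nrp2 took 32 of the 47 peaks (68.1%), and the other 6 genes with a peak shared 15. All 9 liver peaks among the top 10% of the list lay in the windows of these 2 genes. The peaks of these 2 windows had a median percentile of 68.7, and the peaks of the other genes one of 29.4. In the Lyve1 window, 12 of the 16 liver peaks were nearer to a TSS of Rnf141 or Mrvi1 than to one of Lyve1. In MEFs, Foxc2 and Nrp2 together held 22 of 57 peaks (38.6%), the highest percentile of any peak was 89.0, and 0 peaks reached the top 10%. In Hep3B the 6 peaks lay between percentiles 11.9 and 61.1. Per 100 kb of window, the median over the 9 genes came to 0.982 peaks for liver, 3.78 for MEFs and 0.0 for Hep3B, beside 1.84, 2.73 and 0.896 over all protein-coding genes.

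**Figure D2:**
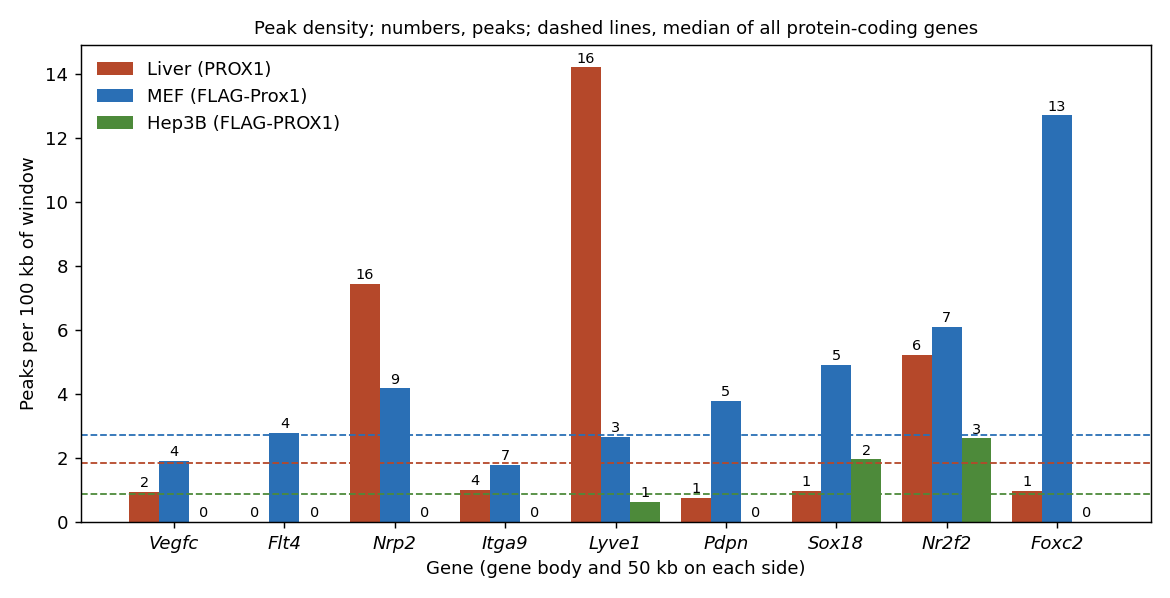
Peaks per 100 kb of window for each gene and list, with the number of peaks above each bar. Dashed lines in the colour of the list are medians over all protein-coding genes. The windows of Lyve1 (14.2) and Nrp2 (7.43) rise above the rest in liver, that of Foxc2 (12.7) does in MEFs. Of the 16 liver peaks in the Lyve1 window, 12 are nearer to a TSS of another gene.

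Vegfc encodes the main lymphangiogenic growth factor and spans chr8:54077606-54187096. In liver it had 2 peaks, both in an intron. The first, chr8:54077834-54078473, had its summit 355 bp from a Vegfc TSS, with a −log10 p of 11.4 (percentile 40.8). The second lay 8219 bp from a TSS at percentile 5.76. In MEFs it had 4 peaks, and the strongest, chr8:54076917-54078415, covered the gene start with its summit 500 bp upstream (−log10 p 6.76, percentile 68.7). The liver and MEF peaks at the gene start overlapped by 582 bp, with summits 1028 bp apart. In Hep3B no peak was assigned to VEGFC, and the nearest summit lay 457375 bp from its TSS. The density in its window, 0.955 peaks per 100 kb in liver and 1.91 in MEFs, stood under the median gene of either list.

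Flt4 encodes VEGFR3, the receptor for VEGF-C, and spans chr11:49609263-49652739. It was the member without a liver peak, and the nearest liver summit lay 231523 bp from its TSS. In MEFs it had 4 peaks. One covered the gene start (chr11:49609205-49610029, summit in the 5′ UTR 472 bp from the TSS), but it was weak within the list, at percentile 2.63 (−log10 p 4.1). The strongest, chr11:49616328-49616553, lay in an intron 7155 bp from the TSS at percentile 67.2 and held the AP-1 word in capitals above. The other pair lay nearer to a TSS of Olfr1380 or Scgb3a1 than to that of Flt4. In Hep3B no peak was assigned to FLT4, and the nearest summit was 160951 bp away from its TSS.

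Nrp2, the coreceptor, spans chr1:62703285-62818695. In liver its 16 peaks comprised 12 in the gene body, 2 upstream and 2 downstream, and each was nearer to a TSS of Nrp2 than to that of any other protein-coding gene. Of all protein-coding genes, 7.25% had as many liver peaks in their window. The Nrp2 window, 215.0 kb, is longer than the median window of 117.0 kb. By density, 7.43 peaks per 100 kb, 17.6% of protein-coding genes stood as high. None of the 16 was a promoter peak, the nearest summit lying 1599 bp upstream of the TSS. Inside the gene, 7 peaks fell within 28.9 kb of intronic sequence (chr1:62723094-62751944) and covered 8158 bp of it, with −log10 p values from 8.53 to 20.0. The longest of them, chr1:62723094-62726335, spanned 3242 bp at percentile 94.9. The highest ranked Nrp2 peak, chr1:62822937-62824358, lay past the end of the gene, 119958 bp from the nearest Nrp2 TSS and in an intron of Gm4208. Its −log10 p of 23.3 placed it at rank 576 (percentile 98.9), and 4.34% of protein-coding genes had a liver peak as high in their window.

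In MEFs Nrp2 had 9 peaks, 1 of them a promoter peak (chr1:62702665-62703832, 197 bp from a TSS, percentile 38.4). The strongest, chr1:62706174-62707477, lay in an intron 3105 bp from a TSS at percentile 80.6, with the consensus match shown above 70 bp from its summit. The site past the gene end, at percentile 98.9 in liver, was also present in MEFs at percentile 42.1, with summits 385 bp apart. Another pair of sites overlapped, 1 upstream and 1 in an intron near the gene start. There the order of percentiles was the other way, with 13.6 and 9.52 in liver and 77.9 and 80.6 in MEFs. The lists end at different values, so this order is one of ranks within each list. The intronic stretch with 7 liver peaks held 0 MEF peaks, but its bounds were taken from those liver peaks. The nearest MEF summit lay 5210 bp from a liver summit of the stretch. In Hep3B no peak was assigned to NRP2, with 321826 bp from its TSS to the nearest summit.

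Itga9, an integrin subunit of lymphatic valves, has the longest window of the members, 394.0 kb in mouse. Its 4 liver peaks had percentiles from 28.3 to 68.1, 1 in an intron of Itga9 and 3 downstream, in introns of Ctdspl and nearer to the TSS of that gene. Its 7 MEF peaks included one at the gene start (chr9:118606251-118607491, 43 bp from the TSS, percentile 26.1). The strongest, chr9:118925266-118926206 at percentile 87.3, lay 53388 bp from an Itga9 TSS and 996 bp from one of Ctdspl. No liver and MEF peaks overlapped here. Over all peaks, 18.9% of liver peaks overlapped a MEF peak, and 21.4% of MEF peaks overlapped a liver peak. The intronic peaks of the 2 lists in this window came no closer than 1893 bp. The densities of 1.01 and 1.78 peaks per 100 kb were below the median gene of liver and MEFs, and no Hep3B peak was assigned to ITGA9.

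Lyve1 encodes the hyaluronan receptor that marks lymphatic and liver sinusoidal endothelium, and spans chr7:110850607-110863239. Its liver window was the densest of the members, with 16 peaks or 14.2 per 100 kb, and 3.79% of protein-coding genes had a density as high. Of these peaks 3 lay in the gene body, 4 upstream and 9 downstream. The strongest peak of all members and lists by percentile was among the 3, in an intron 7811 bp from the nearest Lyve1 TSS (chr7:110854321-110855721, −log10 p 25.3, rank 196, percentile 99.6). A peak as high was found in the windows of 1.73% of protein-coding genes. The others lay in the coding sequence (percentile 24.9) and in the 3′ UTR (percentile 89.7). None lay at the Lyve1 TSS. Upstream, 4 peaks at distances of 18709 to 31675 bp fell in introns of Mrvi1, with percentiles of 92.0, 75.0, 90.7 and 3.5.

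Most of these peaks lay nearer to a TSS of a neighbour than to one of Lyve1. Of the 16 liver peaks, 10 were nearest to a TSS of Rnf141, 2 to one of Mrvi1 and 4 to one of Lyve1. Rnf141, which encodes a RING finger protein, had a peak at its own start in each list, 52 bp from its TSS in liver (percentile 91.9), 43 bp in MEFs (percentile 73.0) and 15 bp for RNF141 in Hep3B (percentile 49.4). The 3 MEF peaks of the Lyve1 window were all nearest to Rnf141, and the Hep3B peak of the LYVE1 window was the RNF141 one. Of all liver peaks, 18.9% overlapped a MEF peak. The intronic Lyve1 peak at rank 196 did not, the nearest MEF summit being 10642 bp away. By contrast, a peak in the 3′ UTR of Rnf141 (chr7:110816065-110816386) had its summit 1 bp from the MEF summit, at percentiles 59.3 and 64.2.

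Pdpn, which encodes podoplanin, spans chr4:143267431-143299564. It had 1 liver peak, intergenic and 60789 bp from the TSS (chr4:143238554-143238995, percentile 23.9), nearer to a TSS of Prdm2. The same place was a MEF peak at percentile 56.0, with summits 268 bp apart. In MEFs 5 peaks were assigned, including one at the gene start (chr4:143298885-143299836, summit 41 bp from the TSS, percentile 23.2) and 2 in introns, at percentiles 25.0 and 14.0. The strongest, at percentile 61.9, lay 40675 bp from the TSS. No Hep3B peak was assigned to PDPN.

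**Figure D3:**
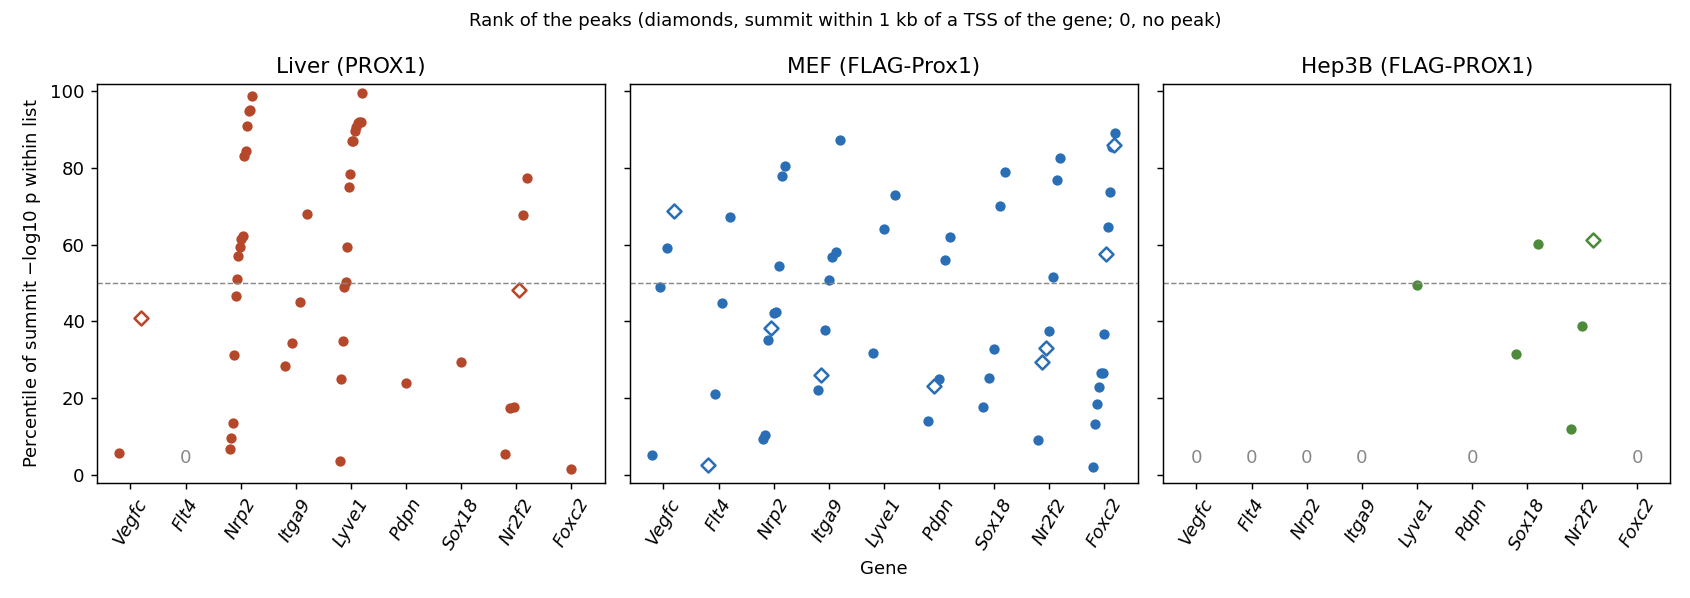
Percentile of each peak within its list by gene, for liver, MEFs and Hep3B. Diamonds are peaks with the summit within 1 kb of a TSS of the gene, dots are other peaks, a grey 0 marks a gene without a peak and the dashed line is percentile 50. The 9 liver peaks above percentile 90 lie in the windows of Lyve1 and Nrp2, and no MEF or Hep3B peak passes 90.

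Nr2f2 encodes COUP-TFII, the nuclear receptor that keeps venous identity and partners with PROX1, and spans chr7:70351944-70366735. Its liver peaks, 6 in number, all lay in the gene body and were nearest to a TSS of Nr2f2. The strongest was chr7:70355768-70356711 (−log10 p 15.5, percentile 77.4), in an exon of a Nr2f2 transcript. The promoter peak in liver, chr7:70358308-70360424, was 2117 bp long, at percentile 48.3, with its summit 689 bp from a TSS. In MEFs the gene had 7 peaks, 5 in the gene body and 2 downstream, with 2 promoter peaks at percentiles 29.3 and 33.2. The strongest MEF peak, chr7:70360617-70362129 at percentile 82.7, lay in an intron 1228 bp from a TSS.

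Nr2f2 had the most overlapping liver and MEF peaks of the members by count, 4 of 6 liver peaks and 4 of 7 MEF peaks. The promoter site had summits 5 bp apart, and its window above shows the AP-1 and NF-Y words. In Hep3B, NR2F2 held 3 of the 6 peaks. The strongest, chr15:96330400-96331100 of hg38, had its summit in the 5′ UTR 13 bp from a TSS (−log10 p 6.81, percentile 61.1). Another lay in an intron 1586 bp from a TSS at percentile 11.9, and the third 23841 bp away at percentile 38.8. Its density of 2.62 peaks per 100 kb was reached by 18.7% of human protein-coding genes.

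Sox18, an SRY-related factor upstream of Prox1, is a short gene in a dense neighbourhood (chr2:181669836-181671640). Its single liver peak lay 48503 bp from the gene in an intron of Prpf6, close to the limit of the window, and the next liver peak was 53598 bp away. In MEFs 5 peaks fell in the window, and each was nearer to a TSS of another gene. The strongest, chr2:181679833-181681150 at percentile 79.0, lay 147 bp from a TSS of Tcea2, and one at percentile 17.7 lay 11 bp from that of Rgs19. Of the 2 Hep3B peaks, 1 lay 117 bp from a TSS of TCEA2 and the other was nearest to C20orf204. No assigned peak of any list lay nearer to Sox18 than to a neighbour, and the nearest summit to its TSS was 7332 bp away, in MEFs.

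Foxc2, the forkhead factor of lymphatic valves, spans chr8:121116171-121118895. In liver 1 peak was assigned, chr8:121113253-121113616, 2687 bp upstream, and at rank 49440 (percentile 1.43) it stood almost at the end of the list. In MEFs the window held 13 peaks or 12.7 per 100 kb, a density that 1.76% of protein-coding genes reached. Of these, 7 were nearest to the Foxc2 TSS, 2 each to those of Foxf1, Mthfsd and Foxl1. The promoter peaks were chr8:121116022-121116495, with its summit in the 5′ UTR 57 bp from the TSS at percentile 85.9, and chr8:121116635-121118203 in the coding sequence at percentile 57.5. The strongest peak of the window, chr8:121104038-121104508 at percentile 89.0, lay in an intron of Mthfsd, 1390 bp from a TSS of that gene.

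The liver site of Foxc2, low in rank within its list, coincided with a MEF peak at percentile 73.8, and the summits were 62 bp apart. The same consensus match lies by that site in both windows, 12 bp from the MEF summit and 74 bp from the liver summit. No Hep3B peak was assigned to FOXC2, whose nearest summit was 817068 bp from its TSS, the longest such distance among the members.

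Over the 9 genes, 12 of 47 liver peaks overlapped a MEF peak by at least 1 bp (25.5%, against 18.9% of all liver peaks), and 12 of 57 MEF peaks overlapped a liver peak (21.1%, against 21.4% of all MEF peaks). These made 13 pairs in 6 genes, Nr2f2, Nrp2, Lyve1, Pdpn, Foxc2 and Vegfc. Summits were between 1 and 1059 bp apart, and in 5 pairs within 100 bp. The median percentile of the pairs was 40.8 in liver and 64.2 in MEFs. Liver and Hep3B were not compared site by site, since their coordinates belong to different genomes and were not converted.

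By position, 24 liver peaks lay in a gene body of a member (51.1%), 7 upstream (14.9%) and 16 downstream (34.0%). Over the windows of all protein-coding genes these shares were 28.6%, 36.9% and 34.5%. In MEFs 23 lay in a gene body (40.4%, against 22.4%), 14 upstream (24.6%, against 39.6%) and 20 downstream (35.1%, against 37.9%). The background was not matched for gene length. Introns of any gene held 35 of 47 liver summits (74.5%, against 57.4% of all liver peaks). Of these, 14 lay in the Nrp2 window and 10 in that of Lyve1. In MEFs introns held 28 of 57 summits (49.1%, against 43.0%). Peaks within 1000 bp of the TSS of any protein-coding gene made up 4 of 47 in liver (8.51%, against 17.0% of all peaks), 16 of 57 in MEFs (28.1%, against 34.5%) and 3 of 6 in Hep3B (50.0%, against 60.5%). Those at a start other than the member's own numbered 2 in liver, 7 in MEFs and 2 in Hep3B. Median peak widths were 491.0 bp in liver, 671.0 bp in MEFs and 663.0 bp in Hep3B, beside 504.0, 646.0 and 634.0 bp over the lists.

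A longer list of 34 other lymphatic genes was placed beside the 9. It was written from general knowledge, but with earlier results of these data known. It includes Prox1 itself, whose window held 35 liver, 0 MEF and 6 Hep3B peaks. In liver 26 had a peak in the window (76.5%, background 69.1%) and 10 a promoter peak (29.4%, background 28.2%). In MEFs 32 had a peak in the window (94.1%, background 81.2%) and 21 a promoter peak (61.8%, background 56.5%). In Hep3B these numbers were 21 (61.8%, background 71.9%) and 13 (38.2%, background 45.2%). Genes with promoter peaks in each of the 3 lists included Adm (adrenomedullin), Cpt1a (fatty acid oxidation), Ephb4 (a receptor of ephrin B2), Fgfr3 (a fibroblast growth factor receptor) and Hhex (a homeodomain factor also needed in liver). For peaks in all 3 lists or in none, no background share was counted, here or for the gene lists below. Of the 34, none lacked a peak in all 3 lists.

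Of 18 blood endothelial genes, 10 had a liver peak in the window (55.6%, background 69.1%) and 2 a promoter peak (11.1%, background 28.2%). In MEFs all 18 had one in the window (background 81.2%) and 7 at a promoter (38.9%, background 56.5%). In Hep3B 10 had one in the window (55.6%, background 71.9%) and 4 at a promoter (22.2%, background 45.2%). None of the 18 had a promoter peak in all 3 lists. Among the 15 hepatocyte genes Cebpa and Foxa2 did, and among the 15 fibroblast genes Lum, a matrix proteoglycan, had no peak in any list. The median liver density was 15.5 peaks per 100 kb for the hepatocyte genes and 2.09 for the blood endothelial genes. It was 2.82 for the other lymphatic genes and 0.0 for the fibroblast genes. The 9 genes had a median of 0.982, and all protein-coding genes one of 1.84.

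**Figure D4:**
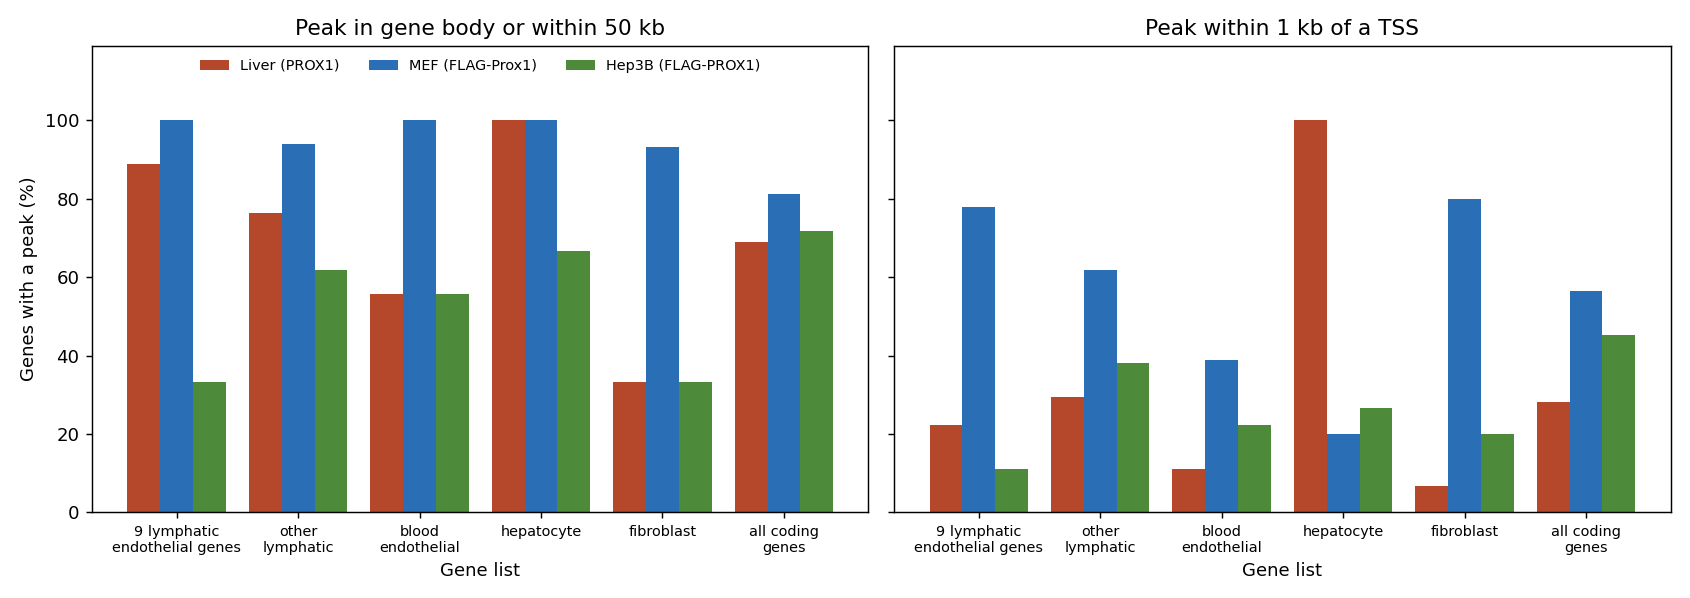
Share of genes with a peak in the window (left) and with a promoter peak (right) in each gene list, for liver, MEFs and Hep3B, with all protein-coding genes at the right of each panel. The 9 lymphatic endothelial genes have promoter peaks in 22.2% (liver), 77.8% (MEFs) and 11.1% (Hep3B). Over all protein-coding genes these shares are 28.2%, 56.5% and 45.2%. For the hepatocyte genes, a list chosen with earlier results known, they are 100.0%, 20.0% and 26.7%.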

How the data were processed

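The members, the window and the other gene lists were chosen with earlier results of these data known. According to their methods and labels, the authors trimmed paired reads (Trim Galore 0.6.6), aligned them with Bowtie2 2.4.2 to mm10 or hg38 and ran Genrich 0.6.1 on all replicates of a group at once for 1 consensus list, dropping duplicates and mitochondrial reads. Their command names no control, so how IgG entered the calls is unknown, as is the depth of each sample. The deposited signal sums significance along a peak as an area, the deposited −log10 p and q describe its summit, and an offset gives the summit's place. None was normalized between lists, and areas start at 500 in liver and 200 elsewhere. The area was used in one alternative and −log10 q in others.

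Genes and TSSs came from GENCODE M21 and GENCODE 44, and sequences from GRCm38 and hg38. Every peak ended within its chromosome. All transcripts of a gene gave TSSs. Windows, overlaps and motif matches were computed in Python 3.11.15 (pandas 2.3.3, numpy 2.4.6), with functions checked on simulated data. The PROX1 consensus was written from general knowledge. Described by rule were the members, each with its strongest peak and the peak nearest to a TSS in every list, genes of the other lists with promoter peaks in all 3 lists or no peak in any, and neighbours nearer to a named peak. A gene that met this rule is not reported here. Individual further peaks were chosen after their values were seen.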

Additional observations from a re-analysis of the deposited data

How the results depend on the processing

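No paired analysis was possible because each list pools the replicates of a group and no result comes from a test over samples. For the same reason no replicate could be left out. Of 87 alternative values, 57 stayed within 1.5 times the reported count and 30 did not. A q below 0.01 left 51 peaks and 6 promoters in MEFs and 5 peaks in Hep3B, within that limit. With the 14369 top peaks of each list, the liver counts fell to 3 genes, 17 peaks and 0 promoters, and the MEF counts to 15 peaks and 2 promoters. With the liver floor of the area, MEFs kept 24 peaks and Hep3B 2 peaks and 0 promoters. Counting the gene body alone left 5 genes and 24 peaks in liver, 23 peaks in MEFs, and 1 gene and 2 peaks in Hep3B. With 10 kb on each side, 31 liver and 3 Hep3B peaks remained, and with 100 kb Hep3B had 10. Peaks nearest to a TSS of the member numbered 30 in liver, 37 in MEFs and 3 (1 gene) in Hep3B. With a promoter limit of 500 bp, liver kept 1 gene. No background share was computed for the q limits, the area floor, these other windows, the nearest TSS or this promoter limit. Whether those counts are high or low for their setting therefore cannot be said. Summits within 100 bp gave 5 shared peaks in liver and 5 in MEFs. With 1 mismatch, 0 liver and 0 MEF peaks matched the consensus (0.357% and 0.318% of all peaks). With 3, 29 in liver (61.7%, against 46.6%), 24 in MEFs (42.1%, against 42.4%) and 5 in Hep3B (83.3%, against 41.7%) did, so the higher share in MEFs at 2 mismatches was not seen at 3. Within 50 bp of the summit the counts were 3 in liver (6.38%, against 2.15%) and 5 in MEFs (8.77%, against 1.16%). By construction, these settings keep fewer or more peaks or letters.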
